A study of Rattus norvegicus with 23 samples.

Results

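Ccl3, Ccl4, Ccl5, Ccl6 and Ccl9 are 5 inflammatory chemokines of the CC family whose transcripts were followed in the lungs of elderly rats that had inhaled titanium dioxide (TiO2) or filtered air. They were picked by gene symbol in the annotation of the array, with earlier results of these data known, and make up 5 of the 23029 genes tested. All 5 passed the filter on dim probes, and all of their probes were well above background on every array. The rats were male F344, 19 months old when inhalation began, and RNA came from the accessory lobe of the lung, with 1 rat per single-colour expression array. Exposed rats breathed a TiO2 nano-aerosol through the nose at 10 mg/m3, in sessions of 6 h on 5 days a week over 4 weeks, and control rats breathed filtered air. The 4 groups were control D0 (6 rats) and TiO2 D0 (5 rats), killed at the end of exposure, and control D28 (6 rats) and TiO2 D28 (6 rats), killed 28 days later. Nothing but the aerosol and the day sets these groups apart in the labels, and whole-lobe RNA does not show which cells made a transcript or whether more cells or more RNA per cell gave a higher signal.

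CC chemokines are small secreted proteins that bind G-protein-coupled receptors on leukocytes and direct their movement into tissue. Ccl3 and Ccl4 are made quickly by activated macrophages, and Ccl3 acts through Ccr1 among other receptors. Ccl5, known as RANTES, is made by activated T cells and natural killer cells, among others, and acts through Ccr1 and Ccr3 among other receptors. Ccl6 and Ccl9 are rodent chemokines of myeloid cells and epithelia that act through Ccr1. In the lung, this group is known for drawing monocytes, lymphocytes and eosinophils to inflamed airways and alveoli.

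In the RefSeq gene table of GRCr8, the 5 genes lie within 145.4 kb of chromosome 10. Their order there is Ccl5, Ccl9, Ccl6, Ccl3 and Ccl4. They are read by 6 array probes of 60 bases each, which the annotation of the array places within 154 kb of rn4. They are shown because each value below is the signal of 1 such oligonucleotide, except for Ccl6, which has a pair. The Ccl4 probe is given whole, since Ccl4 is the 1 member past both thresholds in a comparison below, and the first 30 bases are given of the others, 5′ to 3′ on the strand of the probe.
Ccl3 probe A_42_P714311, chr10:71744611-71744670, minus strand: gtgtttggtgacaattattctaggtagacg
Ccl4 probe A_64_P015460, chr10:71760265-71760324, plus strand: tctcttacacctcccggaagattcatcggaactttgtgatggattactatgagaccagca
Ccl5 probe A_64_P115060, chr10:71605854-71605913, minus strand: tatcataccatagagattataactgtgtcc
Ccl6 probe A_44_P1156652, chr10:71659657-71659716, minus strand: atttacattttaccccgaaaactcctaccc
Ccl6 probe A_64_P095920, chr10:71660623-71660682, minus strand: cagacgtgcataagcaccctgaagctaggc
Ccl9 probe A_64_P132576, chr10:71645984-71646043, minus strand: taggatgaaatccattctgccttagcccat
No probe shares its sequence with another probe of the array, and the position of these probes relative to exons was not analysed here. Each array held 10 spots of each Ccl6 probe, 2 of the Ccl3 and the Ccl5 probe, and 1 of the Ccl4 and the Ccl9 probe.

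Signals below are log2 processed signals after quantile normalization, and a difference between groups is a log2 FC (fold change). All adjusted p come from 1 limma model of the 4 groups, with Benjamini-Hochberg adjustment over the 23029 genes. A differentially expressed gene (DEG) passed 0.05 for this adjusted p and also reached a FC of 1.5 in either direction. The 75th percentile of the raw signal ranged from 1383 to 3470 over the 23 arrays, and the share of spots well above background ranged from 69.5 to 77.9%. The arrays were spread over 5 slides, of which 3 held all 4 groups. Control rat 4 of D28 was alone on its slide. Its array was also the 1 read with a later software version, and had the 75th percentile of 3470. All 11 markers of lung epithelium looked up were well above background on every array. Of 5 measured markers of heart muscle, all were lower in the exposed rats on both days. Of them 1, Myl7, an atrial myosin light chain, was a DEG on D0 and on D28, beside 1.79% and 0.756% of all genes. The part of heart tissue in the differences below was not tested.

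On D0, none of the 5 chemokines was a DEG, beside 1.79% of all genes tested. At an unadjusted p below 0.05, Ccl3 and Ccl4 were above and Ccl6 was below the control level, so 3 of 5 passed that limit, beside 11.9% of all genes. Ccl3 was the 1 chemokine with an adjusted p below 0.05, where the FC fell short of 1.5; 1.52% of all genes were higher in exposed rats by this adjusted p alone. On D28, again none was a DEG, beside 0.756% of all genes, and Ccl3 (higher) and Ccl6 (lower) passed the unadjusted limit, beside 11% of all genes. The study itself lists Ccl3 as over-expressed and Ccl5 as down-regulated in exposed elderly rats on D28, at a FC of 1.5. Its data had a batch correction, whereas the fit here has no batch term. The cause of the different calls was not tested. The median log2 FC of the 5 was 0.30 on D0 and 0.06 on D28, beside -0.00069 and -0.0056 over all genes.

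**Figure D1:**
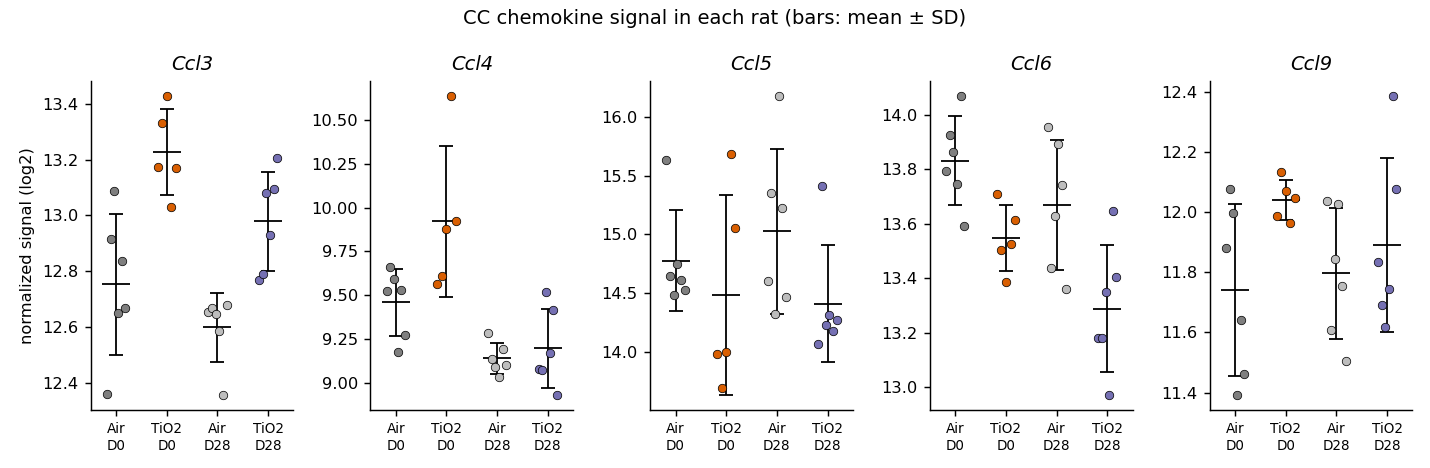
Normalized log2 signal of the 5 chemokines in each rat, with 1 point per rat, the 4 groups along the horizontal axis, and bars at the mean ± SD of a group (n = 6, 5, 6 and 6). The Ccl3 points of the exposed rats lie above those of the controls in all but 1 rat on D0 and in every rat on D28, whereas the Ccl5 points spread over more than 2 log2 units and mix.

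Ccl3, a product of activated macrophages that attracts monocytes and lymphocytes, was higher in exposed rats on both days. Its signal was 13.18, 13.33, 13.43, 13.03 and 13.17 in exposed rats 1 to 5 of D0. In the controls of D0 it ranged from 12.36 to 13.09 with a median of 12.75, so that 4 of 5 exposed rats stood above every control. On D28 it ran from 12.77 to 13.21 (median 13.01) in exposed rats and from 12.36 to 12.68 (median 12.65) in controls. The groups did not overlap on D28, as was the case, with the exposed rats higher, for 0.682% of all genes.

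The mean Ccl3 signal was 12.75 ± 0.25 (SD, n = 6) in controls and 13.23 ± 0.15 (SD, n = 5) in exposed rats of D0, a log2 FC of 0.48 with an SE of 0.12. This corresponds to FC = 1.39, with a 95% interval from 1.18 to 1.65 and an adjusted p of 0.0272. On D28 the means were 12.60 ± 0.12 and 12.98 ± 0.18 (SD, n = 6 each), with FC = 1.30, a 95% interval from 1.11 to 1.53 and an adjusted p of 0.108. Among the 23029 genes ordered by p, Ccl3 ranked 452nd on D0 and 542nd on D28. Within the 4 slides that held both groups of D0, the difference was above 0 on all 4, from 0.26 to 0.76 on the log2 scale, and within 3 slides of D28 it was above 0 on all 3, from 0.11 to 0.58. The adjusted p on D0 rose above 0.05 without control rat 1, 4 or 6 or exposed rat 2 or 3 (0.0600 to 0.0797), and in a fit of the arrays of D0 alone (0.0886), where alternatives that kept every rat ran from 0.00609 to 0.0886.

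Ccl4, the close relative of Ccl3, was higher in the exposed rats of D0 but its groups overlapped. Its signal in exposed rats 1 to 5 was 9.56, 9.61, 9.88, 10.64 and 9.92, against 9.18 to 9.66 (median 9.53) in controls. Exposed rat 4 stood well above the others. The log2 FC was 0.46 (SE 0.15), or FC = 1.38, with an adjusted p of 0.132, and without exposed rat 4 it was 0.28. With the slide as a block the adjusted p was 0.0288, at a FC still below 1.5, and over all alternatives that kept every rat it ran from 0.0288 to 0.268. Within the 4 slides that held both groups of D0, the difference was above 0 on 3 and ran from -0.10 to 1.11. The slide with 1.11 held 1 exposed rat of D0, rat 4. Within 3 slides of D28 it was above 0 on 1, from -0.07 to 0.23. On D28 the signal ran from 8.93 to 9.52 (median 9.12) in exposed rats and from 9.03 to 9.28 (median 9.12) in controls. The log2 FC of D28 was 0.06, with a 95% interval of the fold from 0.842 to 1.28 and an unadjusted p of 0.704.

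Ccl5, a chemokine of T cells and natural killer cells, had the widest spread of the 5 between rats of a group. Its signal in exposed rats 1 to 5 of D0 was 13.98, 13.70, 14.002, 15.69 and 15.05. Of these rats, 3 lay below every control of that day and rat 4 above every control, where controls ran from 14.49 to 15.63 (median 14.63). On D28, exposed rats ran from 14.07 to 15.41 (median 14.25) and controls from 14.32 to 16.18 (median 14.92), and 5 of 6 exposed rats lay below every control. The mean difference was -0.29 on D0 (95% interval -1.05 to 0.47, adjusted p = 0.921) and -0.61 on D28 (95% interval -1.34 to 0.11, adjusted p = 0.566), and both intervals include 0. The slides disagreed in direction. Within 4 slides of D0 the difference ran from -0.67 to 0.56 and was above 0 on 1. Within 3 slides of D28 it ran from -0.71 to 0.94 and was above 0 on 1. When 1 rat was left out, the difference of D0 ran from -0.59 (without exposed rat 4) to -0.095 (without exposed rat 2). That of D28 ran from -0.81 (without exposed rat 2, unadjusted p = 0.0275) to -0.38 (without control rat 4). Control rat 4 of D28, with the highest Ccl5 signal (16.18), was the rat alone on its slide and software version, which cannot be told apart from the rat. The SD within groups was between 0.43 and 0.85 for Ccl5, whereas the SD between the 2 spots of the probe on an array had a median of 0.026.

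Ccl6, a rodent chemokine that acts through Ccr1, was lower in exposed rats on both days without passing the adjusted limit. Its signal in exposed rats 1 to 5 of D0 was 13.71, 13.51, 13.39, 13.52 and 13.61, and 13.59 to 14.07 (median 13.83) in controls. Of these, 3 lay below every control. On D28 it ran from 12.97 to 13.65 (median 13.27) in exposed rats and from 13.36 to 13.95 (median 13.68) in controls, with 4 of 6 exposed rats below every control. The log2 FC was -0.28 (SE 0.12, adjusted p = 0.327) on D0 and -0.38 (SE 0.12, adjusted p = 0.137) on D28. Both Ccl6 probes gave the same direction, with differences of -0.32 and -0.24 on D0 and of -0.37 and -0.39 on D28. Summed over all arrays of a group, between 7 and 10 spots of the second probe were marked as outliers by the scanner software and left out. Each single array held 10 spots of this probe. The difference was below 0 within each of the 4 slides of D0, from -0.41 to -0.20, and within each of the 3 slides of D28, from -0.35 to -0.18.

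Ccl9, the neighbour of Ccl6 with the same receptor, had a mean above that of the controls where Ccl6 had one below, and neither difference passed the adjusted limit. Its signal in exposed rats 1 to 5 of D0 was 11.99, 12.13, 12.07, 11.96 and 12.05, within a range of 0.2, whereas controls ran from 11.39 to 12.08 (median 11.76). Only exposed rat 2 lay above every control. The log2 FC was 0.30 (SE 0.15) on D0, with an adjusted p of 0.431, and 0.10 (SE 0.14) on D28, with an adjusted p of 0.893. Within 4 slides of D0 the difference ran from -0.09 to 0.61 and was above 0 on 3. Within 3 slides of D28 it ran from 0.11 to 0.19. On D28 exposed rats ran from 11.62 to 12.39 (median 11.79) and controls from 11.50 to 12.04 (median 11.80).

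**Figure D2:**
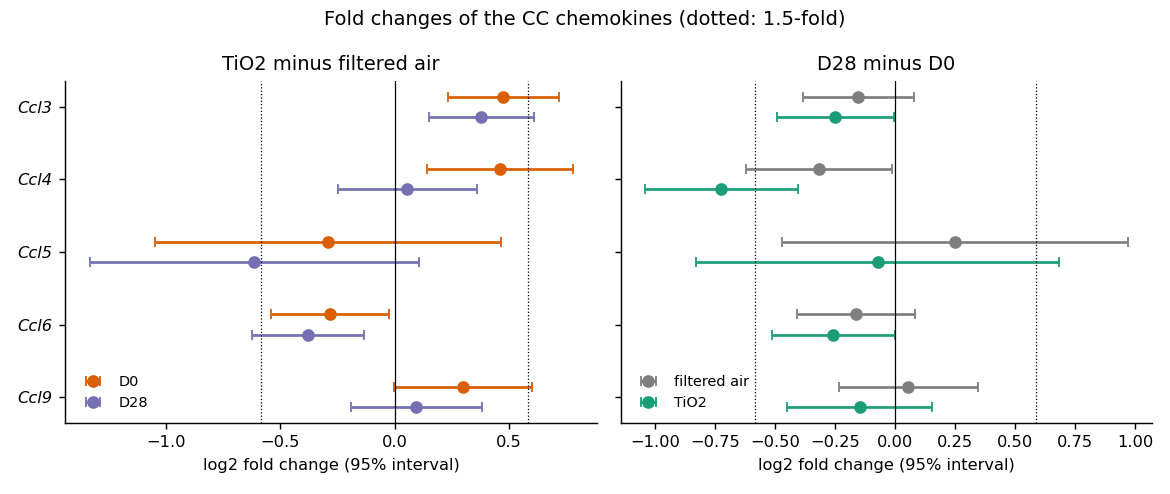
Log2 FC of the 5 chemokines with 95% intervals, for TiO2 against filtered air on D0 and D28 (left) and for D28 against D0 in each treatment (right), where dotted lines mark a FC of 1.5. Intervals that leave out 0 on the left belong to Ccl3 and Ccl6 on both days and to Ccl4 on D0. On the right they belong to Ccl4, Ccl3 and Ccl6 in exposed rats and to Ccl4 in control rats. The Ccl4 interval of the exposed rats runs from -1.04 to -0.41. The upper ends are -0.0069 for Ccl3 and -0.00058 for Ccl6 in exposed rats, and -0.015 for Ccl4 in control rats.

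The level of Ccl4 fell in exposed rats between the end of exposure and D28. All 6 exposed rats of D28 lay below all 5 of D0, as 0.538% of all genes did. The log2 difference was -0.72 (SE 0.15), or a FC of 1.65 downwards, with an adjusted p of 0.0309. Ccl4 was thus the 1 member of 5 past both thresholds, beside 0.139% of all genes that fell in this comparison. The call was lost with the replicate number as a block (-0.69, adjusted p = 0.113, in a range from 0.00639 to 0.113 over alternatives that kept every rat), and without exposed rat 3, 4 or 5 of D0 or exposed rat 1, 2, 4 or 6 of D28. Without exposed rat 4 of D0 the difference was -0.55, below the FC limit, and without any of the other 6 the adjusted p was between 0.0552 and 0.0923.

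Control rats had a difference in the same direction for Ccl4, -0.32 (SE 0.15, adjusted p = 0.353), with 4 of 6 rats of D28 below every control of D0. The test of the change in TiO2 effect between the days gave -0.41 for Ccl4, with an unadjusted p of 0.0688 and an adjusted p of 1.00, so a difference between exposed and control rats in this fall was not shown. For the other 4 chemokines that change was between -0.32 and -0.095, none with an unadjusted p below 0.05. Across the array, 0.0304% of genes passed this test by adjusted p and 3.44% by unadjusted p. In exposed rats, Ccl3 (-0.25, adjusted p = 0.645) and Ccl6 (-0.26, adjusted p = 0.647) were lower on D28 than on D0 at an unadjusted p below 0.05 alone, which 7.7% of all genes passed. In control rats, none of the 5 was a DEG between the days, beside 0.608% of all genes, and Ccl4 was the 1 with an unadjusted p below 0.05, beside 13.3% of all genes.

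Ordered by mean signal, the groups of Ccl3 ran from control D28 and control D0 to TiO2 D28 and TiO2 D0, and neither the neighbours control D28 and control D0 (adjusted p = 0.594) nor TiO2 D28 and TiO2 D0 (adjusted p = 0.645, unadjusted p = 0.0443) passed the adjusted limit. For Ccl4 the order was control D28, TiO2 D28, control D0 and TiO2 D0, and the 2 lowest differed by 0.06. For Ccl5 it was TiO2 D28, TiO2 D0, control D0 and control D28, where no neighbours passed the unadjusted limit. For Ccl6 it was TiO2 D28, TiO2 D0, control D28 and control D0, where the 2 lowest differed at an unadjusted p of 0.0495 alone. For Ccl9 it was control D0, control D28, TiO2 D28 and TiO2 D0, where no neighbours that were tested passed the unadjusted limit.

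After group means were removed, 2 of the 10 pairs of these chemokines were correlated over the 23 rats at an adjusted p below 0.05, by permutation within groups. Ccl6 and Ccl9 varied together, with Pearson's r = 0.67 (permutation p = 0.00279, adjusted p = 0.0243) and Spearman's rho = 0.63 (permutation p = 0.00497, adjusted p = 0.0497). Ccl3 and Ccl5 varied in opposite directions, with r = -0.54 (permutation p = 0.00486, adjusted p = 0.0243) and rho = -0.45 (permutation p = 0.0241, adjusted p = 0.121). With slide means removed as well, r was 0.59 for Ccl6 and Ccl9 and -0.57 for Ccl3 and Ccl5 (adjusted permutation p = 0.0426 for both). Without the 2 arrays farthest from the median of the first gene, r was 0.53 and -0.47, and the adjusted permutation p was 0.0865 for both. Ccl3 and Ccl4, which are induced together in macrophages, had r = -0.03 (permutation p = 0.908) and rho = 0.15 (permutation p = 0.531).

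**Figure D3:**
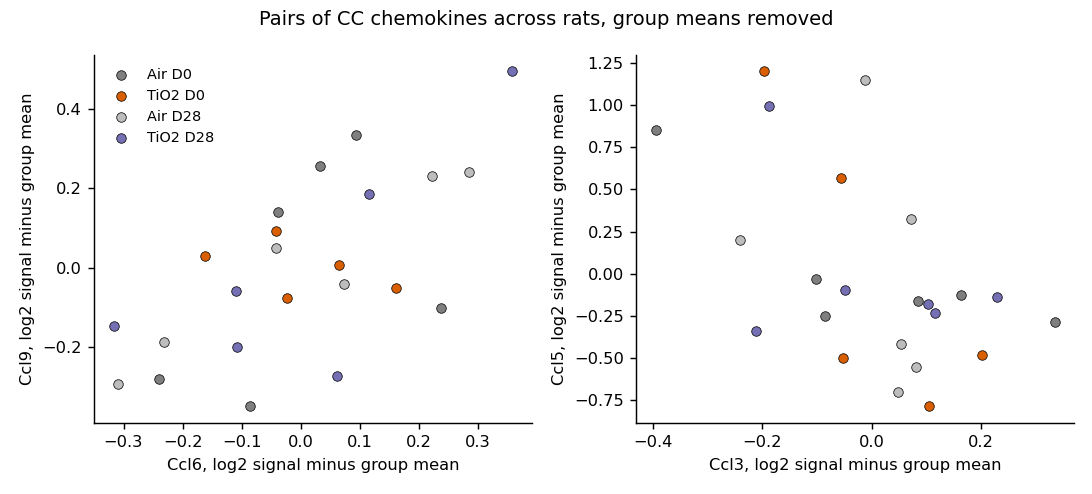
Group-centred log2 signals of Ccl9 against Ccl6 (left) and of Ccl5 against Ccl3 (right), with 1 point per rat and colours for the 4 groups (n = 23). Points rise from left to right for Ccl6 and Ccl9 (r = 0.67) and fall for Ccl3 and Ccl5 (r = -0.54).

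RefSeq promoter windows of GRCr8, from 250 bases before the annotated start to 50 after it, were at hand for 2 of the 5 genes, Ccl6 and Ccl9, the pair that varied together. No other pair could be set beside them. The 250 bases before the start are shown, 5′ to 3′ on the strand of the gene, with capitals for matches to the motifs searched. The start used for the Ccl9 window lies inside the gene as the RefSeq gene table bounds it, so that 51 of the bases shown for Ccl9 are within the gene, and 0 of those shown for Ccl6.
Ccl6 promoter, chr10:68883367-68883616, minus strand: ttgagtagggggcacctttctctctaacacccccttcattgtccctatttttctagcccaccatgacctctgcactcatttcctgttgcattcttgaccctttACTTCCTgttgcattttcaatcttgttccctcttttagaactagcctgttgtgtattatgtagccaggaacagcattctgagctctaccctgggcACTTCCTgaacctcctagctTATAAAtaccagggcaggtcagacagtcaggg
Ccl9 promoter, chr10:68868878-68869127, minus strand: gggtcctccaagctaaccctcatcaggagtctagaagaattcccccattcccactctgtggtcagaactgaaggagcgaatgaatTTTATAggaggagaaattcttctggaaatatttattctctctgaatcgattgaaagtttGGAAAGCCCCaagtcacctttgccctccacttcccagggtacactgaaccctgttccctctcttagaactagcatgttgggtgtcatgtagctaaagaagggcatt
In a local alignment of the 300-base windows, 137 bases of each lined up and 102 of them (74.5%) were identical. This stretch ran from -158 to -22 for Ccl6 and from -89 to 50 for Ccl9, counted from the annotated start, so for Ccl9 it goes on past the annotated start and beyond the bases shown. Motifs were searched on both strands, where a match may overlap another. They were the kappaB consensus, AGGAAGT, which is bound by factors of the ETS family, and the box TATAAA, together with a common site of AP-1 factors, TGACTCA, and a site like that of C/EBP factors, TTGCNNAA. The kappaB consensus had 2 matches in the Ccl9 window, GGAAAGCCCC and GGGGACTTCC, the second of them after the annotated start, and none in the Ccl6 window, and 7.51% of the 33469 promoter windows of the table hold it. AGGAAGT had 2 matches for Ccl6 and 1 for Ccl9, the latter overlapping GGGGACTTCC, and is in 8.41% of windows. TATAAA had 1 match for Ccl6 and 3 for Ccl9, of which 2 overlap, and is in 14.2% of windows. The AP-1 site and TTGCNNAA had no match in either window, and are in 4.63 and 10.6% of windows.

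The genes most like each chemokine over the 23 rats differed from member to member. Likeness was Pearson's r of the log2 signal with each of 15590 genes well above background on every array, group differences included, and is given as a description. Ccl5 stood apart by how closely it was followed. Its 5 most like genes were Gzmk (r = 0.98), Gzma (0.97), Nkg7 (0.95), Klre1 (0.95) and Sh2d1a (0.95), of which Gzmk and Gzma encode granule proteases of cytotoxic lymphocytes and Nkg7 a protein of their granule membrane. With group means removed these r were between 0.94 and 0.98. Gzmk was 12.38 in control rat 1 of D0, 12.51 in exposed rat 4 of D0, 12.88 in control rat 4 of D28 and 11.98 in exposed rat 2 of D28, the rat with the highest Ccl5 in each group. The summed signal of 8 markers of natural killer and cytotoxic cells ran from 12.78 to 14.97 on the log2 scale in exposed rats of D0 and from 13.59 to 14.63 in controls, and from 13.06 to 14.16 and 12.97 to 14.78 on D28. None of these 8 markers was a DEG on D0 or D28, and at an unadjusted p below 0.05 the count was 0 of 8 on both days. Exposed rats had a higher mean for 1 of 8 on D0 (median log2 FC -0.27) and for 0 of 8 on D28 (median log2 FC -0.28), and the Ccl5 mean was lower on both days too. The part of these markers in the Ccl5 values was not tested.

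**Figure D4:**
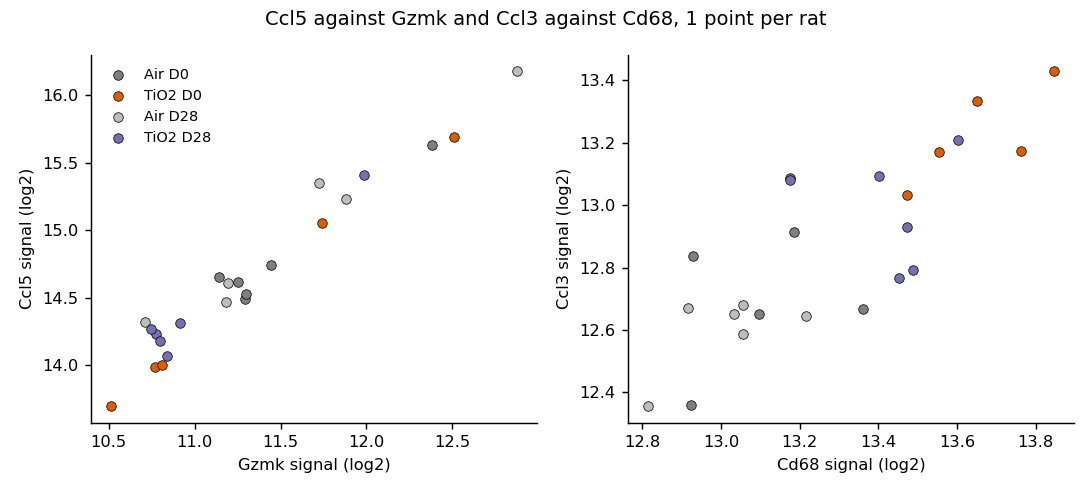
Log2 signal of Ccl5 against that of Gzmk (left) and of Ccl3 against that of Cd68 (right), with 1 point per rat and colours for the 4 groups (n = 23). The Ccl5 points lie along a line through all groups (r = 0.98), and in the plot of Ccl3 the exposed rats of D0 sit at the upper right (r = 0.81).

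Ccl3 was most like Lgals3 (r = 0.83), Zbtb48 (0.83), F3 (0.82), Naglu (0.82) and Cd68 (0.81). Lgals3, a lectin, Naglu, a lysosomal enzyme, and Cd68, a lysosomal membrane protein, are all abundant in macrophages, and F3 encodes tissue factor. With group means removed, r was between 0.36 and 0.64 for these 5. Ccl4 was most like Parp3, Srm, Plek, C1qc and Tnfrsf12a, with r from 0.80 to 0.83. C1qc, a complement chain of macrophages, had r = 0.71 with Ccl4 after group means were removed. Ccl6 was most like Lurap1l, Mns1, Scgb3a1, Spire2 and Cfap161 (r from 0.87 to 0.89), where Scgb3a1 is a secretory protein of airway epithelium and Mns1 and Cfap161 are cilium genes. Ccl9 was most like Iqgap3, Fxyd2, B3galt4, Nxt1 and RGD1561113, with r from 0.76 to 0.82.

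Macrophage markers did not all move one way. The summed signal of 12 macrophage markers ran from 14.06 to 14.31 in exposed rats and from 13.55 to 13.91 in controls of D0, and from 13.74 to 14.07 and 13.46 to 13.81 on D28. Of these 12, exposed rats had a higher mean for 9 on D0 and for 8 on D28, with a median log2 FC of 0.29 and 0.11. The signal of Cd68, with a mean of 13.66 in exposed rats of D0, was the largest term of that sum, and its r with Ccl3 was 0.37 once group means were removed. Siglec1, a macrophage adhesion receptor, was the 1 DEG of these 12 on D0 (log2 FC 0.89, adjusted p = 0.00262), beside 1.79% of all genes. Cd68 had a log2 FC of 0.55 (adjusted p = 0.00293) on D0 and 0.42 (adjusted p = 0.0294) on D28, both under the FC limit. Among the markers with a lower mean, Chit1, a chitinase, had -0.51 (adjusted p = 0.151) and Adgre1 -0.25 (adjusted p = 0.784) on D0, and Mertk, a receptor for dying cells, had -0.31 (adjusted p = 0.277) on D28. The part of these markers in the Ccl3 difference was not tested. Among 8 monocyte markers Itgam, an integrin chain of myeloid cells, was the 1 DEG on both days, beside 1.79% and 0.756% of all genes. Exposed rats had a higher mean for 6 of these 8 on D0 and for 8 on D28, with a median log2 FC of 0.18 and 0.13. Plac8 (-0.33, adjusted p = 0.336) and Vcan (-0.02, adjusted p = 0.996) had a lower mean on D0. Among 11 neutrophil markers Lcn2 was the 1 DEG on D0, beside 1.79% of all genes. Exposed rats had a higher mean for only 4 of these 11 on D0 (median log2 FC -0.06), and Fpr1 (-0.80, adjusted p = 0.111) and Ngp (-0.75, adjusted p = 0.372) were among those with a lower mean. No marker of T cells (12 measured), B cells (6), eosinophils and mast cells (7), lung epithelium (11) or endothelium (5) was a DEG on either day.

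Of the receptors of these chemokines, Ccr1 and Ccr3 were not DEGs on D0 or D28. Ccr1, through which Ccl3, Ccl5, Ccl6 and Ccl9 act, had a log2 FC of 0.31 (adjusted p = 0.715) on D0 and of 0.16 (adjusted p = 0.877) on D28. Ccr3, the receptor of eosinophils, had a log2 FC of -0.50 (adjusted p = 0.296) on D0 and of -0.02 (adjusted p = 0.988) on D28, and 1 of its 2 probes was not well above background on 12 of the 23 arrays. On D28 the Ccr3 probes disagreed, with -0.39 for that dim probe and 0.34 for the other.

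Of 27 measured genes that carry or limit the signal of these receptors (G-protein subunits, arrestins, kinases, Rac regulators), none was a DEG on either day. The unadjusted limit was passed by 3 on D0 and 4 on D28, beside 11.9% and 11% of all genes. A further 24 genes induce these chemokines or limit that induction (cytokines, Toll-like receptors, NF-kB and its inhibitors, interferon regulatory factors). Of them, 1 was a DEG on D0 and none on D28, beside 1.79% and 0.756% of all genes. At the unadjusted limit, 7 passed on D0 and 4 on D28, beside 11.9% and 11% of all genes. On D0, 6 of the 7 were higher in exposed rats and 1, the inhibitor Nfkbia, was lower (-0.49, adjusted p = 0.415). The DEG was Tnf, the cytokine that starts much of macrophage inflammation, with a log2 FC of 1.06 (SE 0.22, adjusted p = 0.00887) on D0 and of 0.26 (adjusted p = 0.737) on D28. Between D0 and D28 Tnf fell by 1.31 on the log2 scale (SE 0.22, adjusted p = 0.00446) in exposed rats, in the comparison in which Ccl4 fell. In control rats the Tnf difference between the days was -0.51 (adjusted p = 0.299). The change in its TiO2 effect was -0.80 (unadjusted p = 0.0165) and did not pass the adjusted limit. A difference between exposed and control rats in the fall of Tnf was thus not shown. One of the 2 Tnf probes was not well above background on 14 of the 23 arrays, and both gave a similar difference on D0, of 1.09 and 1.02.

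Other CC ligands included DEGs with a FC well above those of these 5. Of 15 measured, 4 rose on D0, beside 1.79% of all genes that were DEGs. They were Ccl1 by 2.31 on the log2 scale (adjusted p = 0.00105), Ccl7 by 1.99 (adjusted p = 0.000625), Ccl12 by 1.91 (adjusted p = 0.0303) and Ccl2 by 1.46 (adjusted p = 0.00663). Ccl2, Ccl7 and Ccl12 are the ligands of Ccr2 on monocytes. On D28, 2 of 15 rose, beside 0.756% of all genes that were DEGs. These 2 were Ccl1, by 1.504 (adjusted p = 0.0386), and Ccl28, a mucosal chemokine. The Ccl28 probe was not well above background on any control array of D28 and was so on only 1 of 6 exposed arrays. Both of its means thus lay near background, so its limma call (adjusted p = 0.0364) comes with no reliable fold. The Ccl1 probe was well above background on 4 of 6 control arrays of D0 and on 5 of 6 of D28. The median log2 FC of the 15 was 0.19 on D0 and 0.32 on D28, and whether the 5 members differ from these as a group was not tested.

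**Figure D5:**
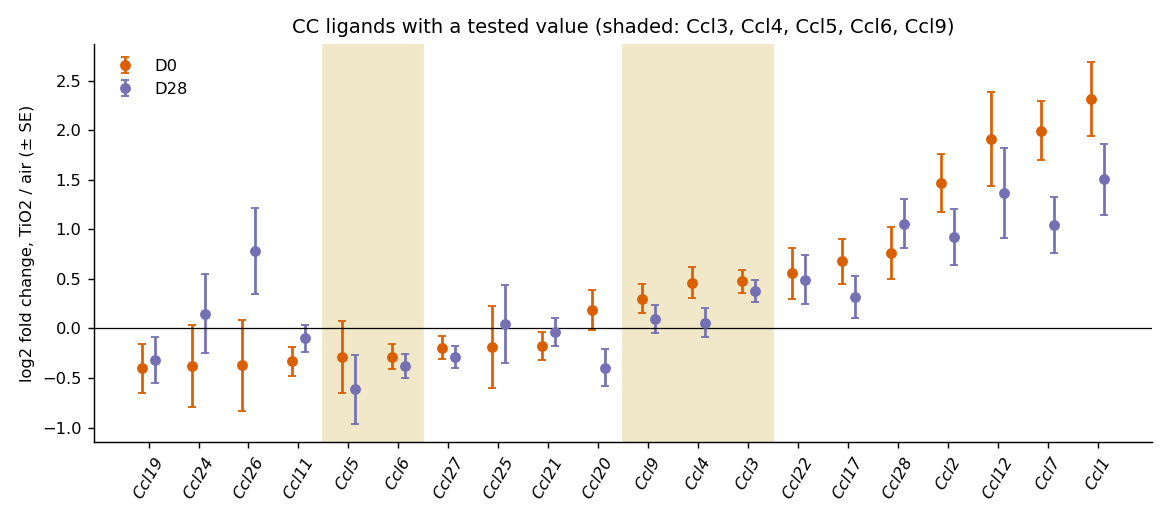
Log2 FC of TiO2 against filtered air on D0 and D28, with SE, for 20 CC ligands ordered by the FC of D0, where shading marks the 5 chemokines described here. The 3 shaded genes to the right, Ccl9, Ccl4 and Ccl3, lie at or below 0.48, whereas the 4 genes at the far right lie between 1.46 and 2.31 on D0.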

How the data were processed

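The authors deposited scanner output of Agilent Feature Extraction (version 11.0.1.1 per the labels, 12.0.1.1 on 1 of 23 arrays per the file headers), and the processed signal used here is an intensity per spot, corrected for background within the array. A deposited table of intensities holds the quantile-normalized median signal and served as an alternative.

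Log2 processed signals were used, with outlier spots set missing. A probe was kept if at least 5 arrays had it above the 95th percentile of their 308 negative controls, which left 40417 of 45598 probes. Arrays were quantile normalized in R 4.3.3, and spots, then probes, were averaged to 23029 genes. Gene symbols came from the 1 file of the later software version. limma 3.58.1 fitted 4 group means with 19 residual degrees of freedom and no batch term, and was tested on simulated data. Correlations used 100000 permutations within groups (two-sided, scipy 1.17.1). Intervals are 95% intervals of the moderated fit. The number of arrays limits precision, and p-values measure the spread between rats.

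Groups follow titles and descriptions. The source label gives day 0 for the TiO2 D28 rats, against both of these. The study names 6 TiO2 D0 rats, of which 1 was not analysed here. The members, the gene lists and the tests were chosen with earlier results of these data known, and the promoter motifs with the letters in view. Named were the 5 members, Ccr1, Ccr3, list genes past both thresholds (up to 4 per list), and the 5 genes most like each member. One further gene of this rule is not reported here. Markers such as Cd68, Siglec1, Itgam, Lcn2, Myl7, Chit1 and Fpr1 were named after their values were seen. Alternatives covered scaling, background, filters, probe summary, software names, model, blocks and limits, and 23 fits without 1 array each.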

Additional observations from a re-analysis of the deposited data

Results flagged for a closer look

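In 20 groups of 5 or 6 rats (5 genes in 4 groups), 3 rats lay far from the others of their group by Dixon's test, where chance gives about 1 in 20 groups. Ccl3 was 12.36 in control rat 5 of D28, against 12.59 in the next lowest control of that day. Ccl5 was 15.63 in control rat 1 of D0, against 14.74 in the next highest, and 15.41 in exposed rat 2 of D28, against 14.31 in the next highest. The summed signal of cytotoxic cell markers was also the highest of the group in both rats, at 14.63 and 14.16 on the log2 scale.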

How the results depend on the processing

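The counts of chemokines past both thresholds were 0 of 5 on D0 and on D28 and stayed so under every alternative run, except that dropping the FC limit gave 1 on D0 (Ccl3, log2 FC 0.4757). Ccl4 fell past both thresholds between D0 and D28 in exposed rats, and this count of 1 became 0 with the replicate number as a block, and ran from 0 to 1 when 1 rat was left out. Some rats with the same number deviated together and others did not. Correlations of control with exposed rats ran from -0.225 to -0.117 on D0 and from -0.174 to 0.455 on D28, and those of rats of D0 with rats of D28 from -0.193 to 0.386 in controls and from -0.301 to 0.148 in exposed rats. The numbers were therefore not taken to pair the rats, and the replicate block changed no other call of a member.

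Signs turned for small values. Without exposed rat 3 of D28 the Ccl4 log2 FC of D28 was -0.0084, and without exposed rat 5 of D28 that of Ccl9 was -0.0034 (ranges -0.0084 to 0.1094 and -0.0034 to 0.1501). In control rats between the days, Ccl9 was -0.0077 and Ccl5 was -0.0350 with the slide as a block, and Ccl9 ran from -0.0150 to 0.1215 when 1 rat was left out, with -0.0011 without control rat 6 of D0. In exposed rats between the days, Ccl5 was 0.1529 with array weights, and 0.2276 and 0.0688 without exposed rat 4 and 5 of D0 (range -0.2725 to 0.2276), and its change in TiO2 effect was 0.0234 with array weights. Of the 2 correlated pairs, none passed without the 2 farthest arrays (0 of 10 pairs). With slide means removed, r was 0.2012 for Ccl3 and Ccl4, -0.2532 for Ccl4 and Ccl6 and -0.3556 for Ccl5 and Ccl6, and without the 2 farthest arrays it was 0.0267 for Ccl3 and Ccl4 and -0.0660 for Ccl5 and Ccl6.

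Counts over all genes moved as follows. On D0, 412 DEGs became 221 with normexp, 659 with no FC limit and 946 with an unadjusted p, and ran from 315 to 440 with 1 rat left out. On D28, 174 became 94, 303 and 664, 42 with the arrays of D28 alone, and 111 to 203 with 1 rat left out. For the change in effect, 7 became 16 with normexp, 13 with the stricter background filter, 12 with an intensity trend, 793 with an unadjusted p, and 6 to 11 with 1 rat left out. Control rats between the days gave 140, or 763 with an unadjusted p, and 87 to 199 with 1 rat left out. Exposed rats between the days gave 81, or 128 with the slide as a block, 567 with an unadjusted p, and 57 to 89 with 1 rat left out. The cause of these moves was not tested. Among other results, the Ccl3 adjusted p of D28 was 0.0484 with scaling to the 75th percentile. It ran from 0.0484 to 0.219 over the alternatives that kept all rats. With that scaling the median log2 FC of all genes was 0.0315 on D0 and -0.012 on D28, beside -0.00069 and -0.0056 in the main fit.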
